A study of Mus musculus with 12 samples.

Results

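The genes described here set the pace of the first gap phase (G1) of the cell cycle: the D cyclins Ccnd1, Ccnd2 and Ccnd3, their kinases Cdk4 and Cdk6, the kinase inhibitors Cdkn1a, Cdkn1b, Cdkn1c and Cdkn2c, and the retinoblastoma gene Rb1. They were taken as a fixed list of 10 genes, by symbol, with 1 probe set per gene (the one with the highest mean). The list was chosen with earlier results of these data known. Of these, 9 were measured among 19938 genes in all. The probe set of Cdkn1a is annotated to more than 1 gene, so no value is given under that name. The genes were followed in 4 groups of whole tissue from pregnant mice, with 3 arrays each: uterus of mice given estradiol (E2), uterus of mice given oil, oviduct of mice given E2 and oviduct of mice given oil. E2 mice received 10 µg/kg under the skin once a day from day 0.5 to day 2.5 after mating. Oil mice received 100 µl of sesame oil with 0 µg/kg of E2, and the E2 mice received their dose in that volume. Uterine horns and oviducts were flushed and frozen on day 3.5. The sources used here do not give strain, age or how many mice an array stands for, and the labels call the arrays of a group biological replicates. Values are log2 intensities of 1-colour Affymetrix arrays, and a probe set's level cannot be set against that of another.

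As background, a cell leaves G1 when D cyclins, made in answer to growth signals, bind Cdk4 or Cdk6. These kinases phosphorylate the Rb1 protein, which then lets go of E2F factors, and E2F turns on the genes of DNA synthesis. Cdkn2c (p18INK4c) blocks Cdk4 and Cdk6 directly, while Cdkn1b (p27KIP1) and Cdkn1c (p57KIP2) hold back cyclin-bound Cdk2. In the mouse uterus, E2 alone drives epithelial cells into division, and progesterone turns this off in the epithelium while the stroma begins to divide before implantation.

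Array medians lay between 89.5 and 92.9 on the linear scale, and arrays of a group correlated at Pearson r 0.984 to 0.996 across genes, which are not independent replicates. Oil replicate 3 stood apart: 177 genes in oil uterus and 302 in oil oviduct were over 1 log2 unit away from the average of the group's other arrays, against 8 to 62 genes on the other arrays. Its oviduct array also carried more signal of 8 corpus luteum genes (summed linear intensity up to 5800 in oil oviduct, against 1059 to 1146 in E2 oviduct). Values without oil replicate 3 stand beside the G1 genes' results where leaving it out ended or gave a call. Cilia genes bore out the tissue labels: 13 of 14 were higher in oviduct than in uterus of oil mice (median log2 difference 2.77). Uterine stromal genes did so too, with 10 of 12 lower (median -0.76). Over all genes 17.3% were called higher and 21.5% lower by limma. Oil oviduct replicate 3 was brighter for cilia genes than the other oil oviduct arrays (median 0.86). Without both oil replicate 3 arrays the counts stayed at 13 and 10, with medians of 2.43 and -0.70. Y-linked genes, which female tissue lacks, reached at most a log2 of 7.50 (Sry), or 4.40 (Kdm5d) without Sry. Among the probe sets chosen for the G1 genes, that of Cdkn2c alone fell below 7.50 on some arrays. By this mark the size of the Cdkn2c differences is uncertain. The mark is a cautious one: it rests on the Sry probe set alone. It also lies above the median gene of every array (log2 6.88 to 6.93), so a level under it need not be background. All 9 genes passed the low-intensity filter of an alternative fit.

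In the uterus of E2 mice the D cyclins Ccnd2 and Ccnd1 and the kinase Cdk4 fell, and the kinase Cdk6 and the inhibitor Cdkn1b rose. By limma, 3 of the 9 genes fell, 2 rose and 4 did not pass the test, against a background of 26.7% of all genes called in this comparison (12.4% higher and 14.3% lower). The median log2 difference of the 9 genes was -0.22, against -0.00070 over all genes, and their median absolute difference was 0.34 against 0.14. E2 and oil arrays did not overlap for 7 of the 9 genes, against 40.5% of all genes. Without both oil replicate 3 arrays 4 fell and 2 rose, but the members differed: Ccnd1 (-0.21) was no longer called, while Ccnd3 (-0.26) and Cdkn2c (-0.49) were. In whole tissue, fewer cells of a type and less RNA per cell cannot be told apart.

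**Figure D1:**
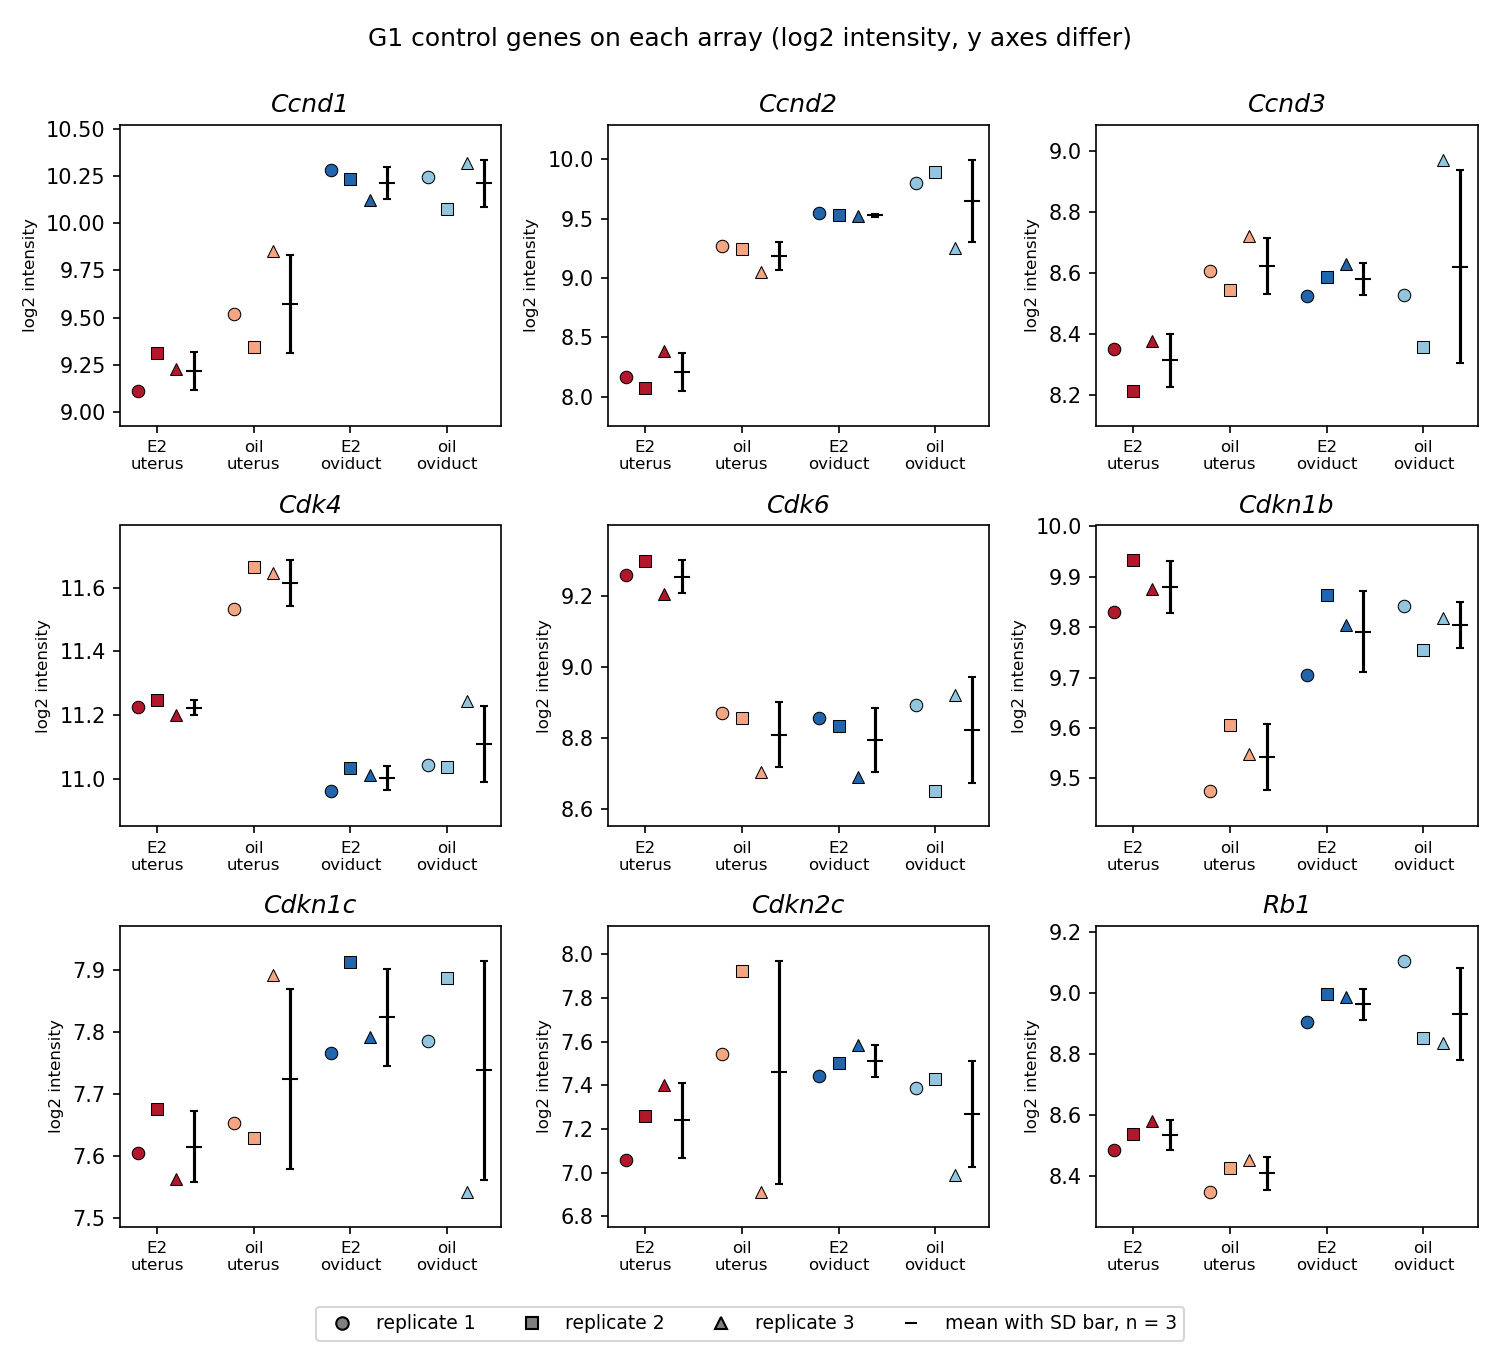
Log2 intensity (y axis) of the 9 measured G1 genes on each of the 12 arrays by group (x axis), with marker shape for the replicate number and a bar for the mean with SD (n = 3); y axes differ between panels. Ccnd2 sits between 8.08 and 8.38 on the 3 E2 uterus arrays and at 9.05 or higher on all others.

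Among the cyclins, Ccnd2 (chromosome 6, 127125162 to 127152188, GRCm38.p6), a D cyclin strongly tied to hormone-driven growth in the ovary, read 8.17, 8.08 and 8.38 on the E2 uterus arrays, against 9.27, 9.24 and 9.05 on the oil uterus arrays. Every E2 array lay below every oil array, with a gap wider than the spread within either group. The log2 difference was -0.98 (SE 0.15, limma adjusted p = 0.00042), a level 1.97-fold lower with E2, and only 3.75% of all genes differed by as much. Its oviduct level was higher, at 9.54, 9.53 and 9.52 with E2, against 9.80, 9.90 and 9.25 with oil. The oil oviduct arrays enclosed the E2 ones, and oil replicate 3 was the lowest of them. E2 uterus was thus the lowest group. The oviduct groups did not differ beyond their spread, and oil oviduct replicate 3 lay just under the highest oil uterus array, so oil uterus and oil oviduct overlapped.

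Ccnd1 (chromosome 7, 144929931 to 144939831), the D cyclin that growth factors induce in most tissues, read 9.11, 9.31 and 9.23 in E2 uterus, against 9.52, 9.34 and 9.85 in oil uterus. The groups did not overlap, but the highest E2 array and the lowest oil array nearly met. The log2 difference was -0.35 (SE 0.12, limma adjusted p = 0.0466). This call ended in 9 of the 12 fits that left out 1 array. The difference was -0.21 without oil uterus replicate 3, where Ccnd1 lay 0.42 above the other oil arrays, -0.38 without oil uterus replicate 1, and -0.30, -0.40 and -0.36 without E2 uterus replicate 1, 2 and 3. It stayed at -0.35, no longer called, when an oviduct array was left out, either oil replicate 1 or any E2 replicate.

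Ccnd3 (chromosome 17, 47505051 to 47599689), the D cyclin best known in lymphocytes and in the mouse decidua, read 8.35, 8.21 and 8.38 in E2 uterus, against 8.61, 8.54 and 8.72 in oil uterus. All 3 E2 arrays lay below the oil arrays. The log2 difference of -0.31 (SE 0.13, limma adjusted p = 0.10) did not pass the test, with a 95% interval of -0.59 to -0.03. It was called at the same -0.31 without oil oviduct replicate 3, the array with the highest Ccnd3 (8.97), and at -0.26 without both oil replicate 3 arrays. With all arrays kept it was called at -0.31 with each tissue fitted alone and at -0.37 with array weights.

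The kinases moved in opposite directions. Cdk4 (chromosome 10, 127063535 to 127067288) read 11.22, 11.25 and 11.20 in E2 uterus, against 11.53, 11.66 and 11.65 in oil uterus. The groups were clearly apart. The log2 difference was -0.39 (SE 0.07, limma adjusted p = 0.0016), a 1.31-fold lower level. Cdk6 (chromosome 5, 3341004 to 3531008), which binds the same cyclins, read 9.26, 9.30 and 9.20 in E2 uterus, against 8.87, 8.85 and 8.70 in oil uterus. Here every E2 array was above every oil array. The log2 difference was 0.44 (SE 0.09, limma adjusted p = 0.0023), a 1.36-fold higher level. Both calls held when any single array was left out.

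The promoters of the genes with opposite directions are shown for comparison, taken from RefSeq (GRCm38.p6, plus strand, 250 bases before to 50 after the start in that table). The windows are chr10:127063285-127063584 for Cdk4, chr5:3343643-3343942 for Cdk6 and chr6:134920151-134920450 for Cdkn1b. The Cdk6 window lies inside the span given for that gene, after its first base at 3341004. The Cdk4 and Cdkn1b windows span the first base of their genes, so the windows do not compare like positions. Capitals mark the E-box CACGTG, a letter run known to be bound by MYC and related factors, and the GC box GGGCGG or its reverse complement.
Cdk4 promoter: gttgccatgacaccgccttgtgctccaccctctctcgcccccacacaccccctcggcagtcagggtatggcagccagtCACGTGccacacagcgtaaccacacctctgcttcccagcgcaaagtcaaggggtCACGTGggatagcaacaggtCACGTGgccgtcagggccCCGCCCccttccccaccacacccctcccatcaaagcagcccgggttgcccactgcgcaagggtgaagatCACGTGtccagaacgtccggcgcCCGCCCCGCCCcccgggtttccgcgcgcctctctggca
Cdk6 promoter: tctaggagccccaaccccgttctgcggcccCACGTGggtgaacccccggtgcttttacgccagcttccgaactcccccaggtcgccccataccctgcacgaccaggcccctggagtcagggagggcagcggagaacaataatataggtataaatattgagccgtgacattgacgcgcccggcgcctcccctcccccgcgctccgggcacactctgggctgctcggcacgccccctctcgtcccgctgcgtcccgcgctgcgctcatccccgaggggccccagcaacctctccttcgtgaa
Cdkn1b promoter: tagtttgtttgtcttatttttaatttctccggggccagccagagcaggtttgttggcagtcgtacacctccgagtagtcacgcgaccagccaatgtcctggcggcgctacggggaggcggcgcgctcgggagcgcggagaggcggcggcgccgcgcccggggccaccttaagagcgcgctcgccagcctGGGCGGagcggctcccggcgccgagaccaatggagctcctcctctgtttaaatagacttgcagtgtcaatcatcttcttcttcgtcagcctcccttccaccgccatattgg
The Cdk4 window, of the gene that fell, held 4 E-boxes, with first bases 172, 118, 98 and 11 bases before the start, and 3 GC boxes, of which the last 2 overlap by a base in 1 run of capitals. The Cdk6 window, of a gene that rose, held 1 E-box, 220 bases before the start, and 0 GC boxes, and the Cdkn1b window held 0 E-boxes and 1 GC box. Of 32851 promoter windows of this length, 7.15% held an E-box and 35.7% a GC box, and 8 windows held 4 or more E-boxes. A search on both strands found 0 matches in these 3 windows to the E2F letters TTTCCCGC (1.07% of all windows), TTTGGCGC (0.514%) and TTTCGCGC (0.323%), to AP-1 TGANTCA (7.81%), to the cAMP element TGACGTCA (1.79%) and to the palindromic E2 response element (0.0700%). The shorter TGACG, which lies within the cAMP element, had 1 match in each window and in 20.8% of all. These matches describe the letters alone. Promoter windows were also matched for Ccnd3, Cdkn1a and Cdkn2c. Each Ccnd3 window held 2 GC boxes and 0 E-boxes, and a Cdkn1a window held 2 GC boxes. A Cdkn2c window held 4 GC boxes, and another held 1 E-box. No window was available for Ccnd1, Ccnd2, Cdkn1c and Rb1, so Cdk4 is the only gene called lower in uterus with a window.

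Of the inhibitors, Cdkn1b (chromosome 6, 134920401 to 134925525) read 9.83, 9.93 and 9.88 in E2 uterus, against 9.47, 9.61 and 9.55 in oil uterus. The groups did not overlap. The log2 difference was 0.34 (SE 0.07, limma adjusted p = 0.0026), a 1.26-fold higher level, and the call held when any single array was left out. A second Cdkn1b probe set, dimmer on average (log2 7.57 against 9.75), rose by 0.84 (SE 0.12, limma adjusted p = 0.00028 over probe sets), so the size of the rise depended on the probe set. The mean of both probe sets gave 0.59. The average of the second probe set was close to the brightest Y-linked value (7.50), so the sizes 0.84 and 0.59 are uncertain. In the oviduct Cdkn1b read 9.70, 9.86 and 9.80 with E2, against 9.84, 9.75 and 9.82 with oil, and the groups overlapped.

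Cdkn1c (chromosome 7, 143458339 to 143461059), an imprinted inhibitor expressed from the maternal copy, averaged 7.61 ± 0.06 in E2 uterus and 7.72 ± 0.14 in oil uterus (SD, n = 3 each). The log2 difference of -0.11 (SE 0.10, limma adjusted p = 0.50) was within the spread of the oil arrays. Cdkn2c (chromosome 4, 109660876 to 109666756) read 7.06, 7.26 and 7.40 in E2 uterus, against 7.54, 7.93 and 6.91 in oil uterus. Oil replicate 3 was the lowest of the 6 arrays and the other oil arrays were the highest. The log2 difference was -0.22 (SE 0.21, limma adjusted p = 0.53), and without oil uterus replicate 3 it was -0.49 and called. Rb1 (chromosome 14, 73192858 to 73325951), the protein the kinases act on, read 8.48, 8.54 and 8.58 in E2 uterus, against 8.35, 8.42 and 8.45 in oil uterus. The groups did not overlap, and the log2 difference of 0.13 (SE 0.08, limma adjusted p = 0.29) did not pass the test.

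**Figure D2:**
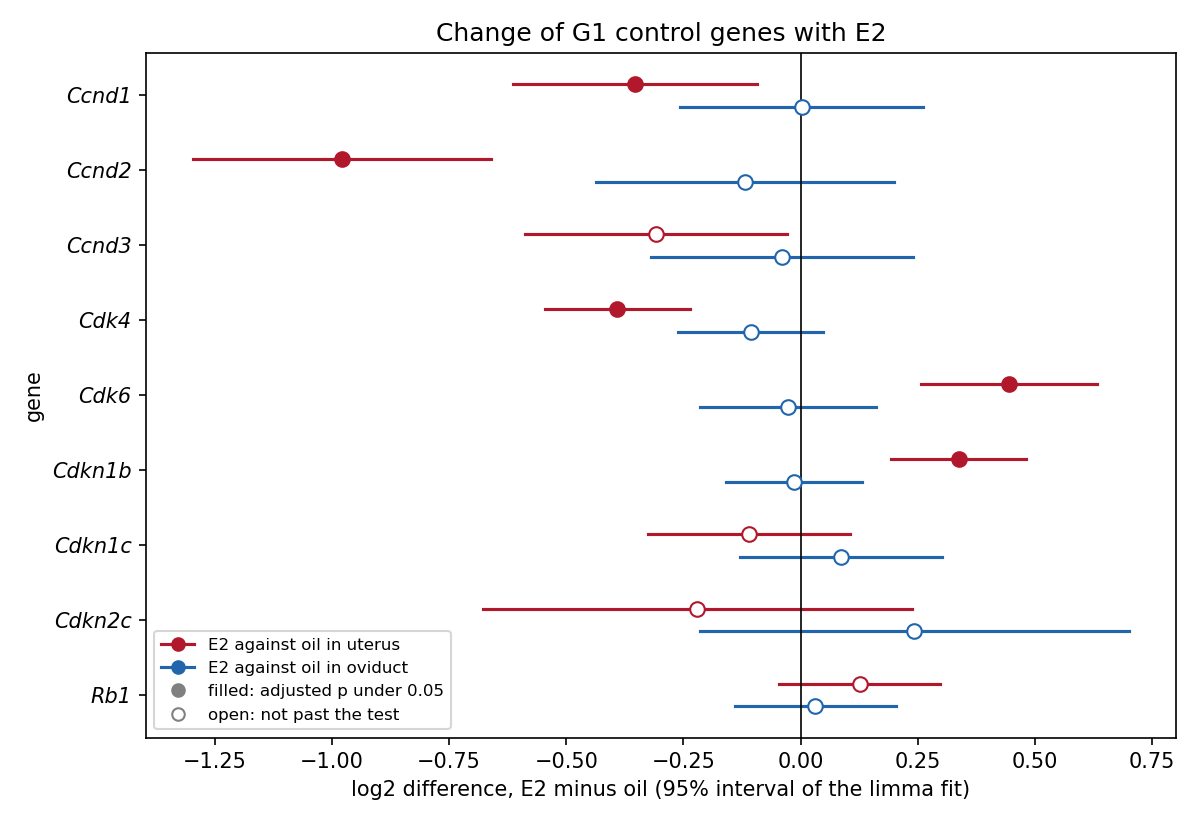
Log2 difference of E2 minus oil (x axis, 95% interval of the limma fit) for the 9 G1 genes (y axis) in uterus (red) and oviduct (blue); filled points had an adjusted p under 0.05. In uterus 5 points are filled, from -0.98 (Ccnd2) to 0.44 (Cdk6), and in oviduct 0.

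In the oviduct, none of the 9 genes was called by limma (0 of 9, with 0 also at an unadjusted p under 0.05 and 0 under every alternative run), where 0.291% of all genes were called. Their log2 differences ran from -0.12 (Ccnd2, 95% interval -0.44 to 0.20) to 0.24 (Cdkn2c, -0.22 to 0.70), and their median absolute difference was 0.04, against 0.08 over all genes. Oil replicate 3 moved several of these values: without it Ccnd2 was at -0.32, with all E2 arrays below both remaining oil arrays, Cdkn2c at 0.10, Ccnd3 at 0.14 (-0.04 with it) and Cdk4 at -0.04, none of them called. Cdk6 (0.02), Cdkn1c (-0.01) and Rb1 (-0.02) changed sign without it, also uncalled. Over all arrays, the interval of Cdk6 (-0.22 to 0.16) left out the rise of 0.44 measured in uterus, and that of Ccnd2 left out the fall of 0.98. E2 and oil arrays did not overlap for Cdk4 and Cdkn2c, or 2 of the 9 genes, against 17.4% of all genes. Cdk4 read 10.96, 11.03 and 11.01 in E2 oviduct, against 11.04, 11.04 and 11.25 in oil oviduct, a log2 difference of -0.11 (SE 0.07). Cdkn2c read 7.44, 7.50 and 7.59 in E2 oviduct, against 7.39, 7.43 and 6.99 in oil oviduct. Both gaps were narrow, and oil replicate 3 was the outermost oil array for each. Ccnd3 averaged 8.58 ± 0.05 in E2 oviduct and 8.62 ± 0.32 in oil oviduct (SD, n = 3 each); oil replicate 3, at 8.97, was the highest.

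The E2 effects of the tissues differed for 3 of the 9 genes by limma's interaction contrast (oviduct effect minus uterus effect), where 11.5% of all genes were called (5.77% higher and 5.71% lower). The difference was 0.86 for Ccnd2 (SE 0.21, limma adjusted p = 0.0192), -0.47 for Cdk6 (SE 0.12, adjusted p = 0.0272) and -0.35 for Cdkn1b (SE 0.09, adjusted p = 0.0321). Each of these genes had passed the test in uterus and not in oviduct, where the effects were -0.12 (-0.32 without oil replicate 3), -0.03 and -0.01. The effects of Cdk4 (0.28, SE 0.10, adjusted p = 0.0974) and Ccnd1 (0.36, SE 0.17, adjusted p = 0.23) were not shown to differ between tissues. Each of these calls ended when certain single arrays were left out. That of Ccnd2 ended without E2 uterus replicate 2 (0.79). That of Cdk6 ended without oil uterus replicate 3 (-0.42), E2 uterus replicate 1 (-0.47) or 2 (-0.45), oil oviduct replicate 1 (-0.44) or E2 oviduct replicate 3 (-0.42). That of Cdkn1b ended without oil uterus replicate 1 (-0.32), E2 uterus replicate 2 (-0.32) or 3 (-0.35), E2 oviduct replicate 1 (-0.31) or 3 (-0.36) or oil oviduct replicate 1 (-0.33), and with arrays centred on their medians (-0.32). Without oil oviduct replicate 3, Ccnd3 (0.45) and Cdk4 (0.35) were called too, and without oil uterus replicate 3, Cdkn2c (0.74). Without both oil replicate 3 arrays 4 genes were called, all with positive differences (Ccnd2, Ccnd3 at 0.40, Cdk4 at 0.34 and Cdkn2c at 0.60), while Cdk6 (-0.37) and Cdkn1b (-0.35) were not.

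Between tissues, oviduct had more Ccnd1, Ccnd2 and Rb1 than uterus and less Cdk4, in E2 and in oil mice alike. In E2 mice 3 genes were higher and 2 lower in oviduct, where 34.1% of all genes were called (15.2% higher and 18.9% lower), and in oil mice 4 were higher and 1 lower, where 38.7% were called (17.3% higher and 21.5% lower). These comparisons share their arrays with the E2 effects above. Arrays of oviduct and uterus did not overlap for 8 of 9 genes in E2 mice, against 49.8% of all genes, and for 4 of 9 in oil mice, against 46.6%.

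Ccnd1 read 10.28, 10.23 and 10.12 in E2 oviduct and 10.24, 10.07 and 10.32 in oil oviduct, above every uterine array. Its oviduct minus uterus difference was 0.99 in E2 mice (SE 0.12, limma adjusted p = 5.5e-05) and 0.64 in oil mice (SE 0.12, adjusted p = 0.0011). Ccnd2 differed by 1.32 in E2 mice (SE 0.15, limma adjusted p = 2.9e-05), and by 0.46 in oil mice (SE 0.15, adjusted p = 0.0247). In oil mice the tissues overlapped for Ccnd2, and the call ended without oil uterus replicate 3 (0.39) or oil oviduct replicate 1 (0.39) or 2 (0.34). Rb1 read 8.90, 9.00 and 8.99 in E2 oviduct and 9.10, 8.85 and 8.83 in oil oviduct, all above the uterine arrays, and differed by 0.43 (SE 0.08) in E2 mice and 0.52 (SE 0.08) in oil mice.

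Cdk4 ran the other way, at -0.22 in E2 mice (SE 0.07, limma adjusted p = 0.0311) and -0.50 in oil mice (SE 0.07, adjusted p = 0.00014). The E2 mouse call ended without any 1 of the 6 E2 arrays (-0.24 to -0.20), and with arrays centred on their medians (-0.18). Cdk6 was lower in oviduct than in uterus of E2 mice by 0.46 (SE 0.09, limma adjusted p = 0.0014), while in oil mice the difference was 0.01 (95% interval -0.18 to 0.20). Cdkn1b was higher in oviduct of oil mice by 0.26 (SE 0.07, limma adjusted p = 0.0076), and in E2 mice the difference was -0.09 (95% interval -0.23 to 0.06). With the mean of both Cdkn1b probe sets these became 0.20, no longer called, and -0.34, called. Ccnd3, Cdkn1c and Cdkn2c were not called between tissues, with 2 exceptions among fits that left out 1 array: Cdkn2c in oil mice without oil uterus replicate 3 (-0.47), and Ccnd3 in E2 mice without oil oviduct replicate 3 (0.27). Without both oil replicate 3 arrays, Ccnd3 (0.27) and Cdkn1c (0.21) were called in E2 mice.

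**Figure D3:**
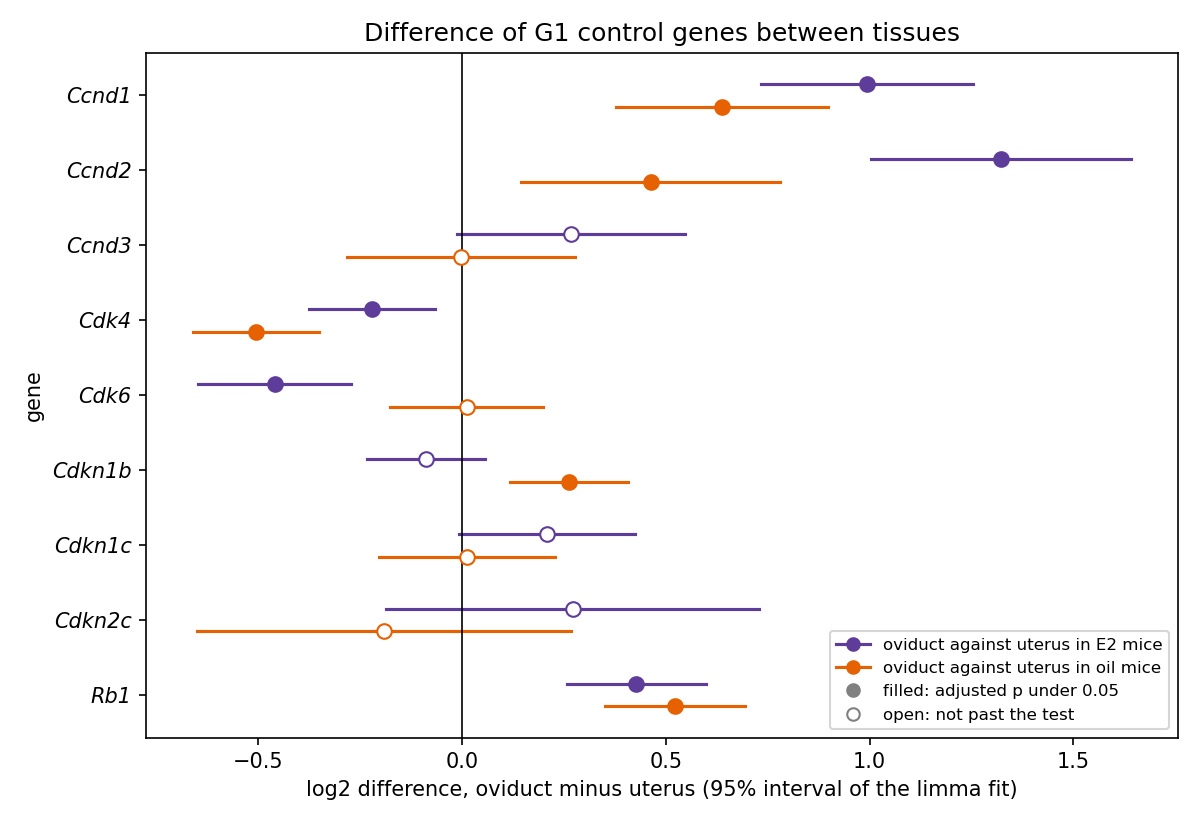
Log2 difference of oviduct minus uterus (x axis, 95% interval of the limma fit) for the 9 G1 genes (y axis) in E2 mice (purple) and oil mice (orange); filled points had an adjusted p under 0.05. Ccnd2 lies at 1.32 in E2 mice and 0.46 in oil mice, and Cdk4 at -0.22 and -0.50.

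Around these genes, many further genes of the G1 to S machinery were lower in E2 uterus. Of 30 further G1/S genes 16 fell, 1 rose and 13 did not pass limma's test (median log2 difference -0.29), against 14.3% lower and 12.4% higher over all genes, and without both oil replicate 3 arrays 17 fell and 1 rose. The E cyclin Ccne2, which activates Cdk2, fell by 1.54 (SE 0.17), to 5.52 in E2 uterus against 7.06 in oil uterus. Cks1b, a cofactor in the destruction of the Cdkn1b protein, fell by 1.24 (SE 0.14), and E2f8, a repressor E2F made in S phase, by 1.68 (SE 0.20). The MYC genes split: Myc, a driver of growth, averaged 8.31 in E2 uterus and 9.87 in oil uterus (-1.55, SE 0.08, limma adjusted p = 2.2e-07), while Mycn rose by 2.38 (SE 0.11, adjusted p = 1.0e-07) over an oil mean of 5.63. Both means of Ccne2, the E2 mean of E2f8 (5.94) and the oil mean of Mycn were dimmer than Sry at its brightest, so the sizes of these changes are uncertain.

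Genes that E2F switches on for DNA synthesis fell in 21 of 21 measured members in uterus (median -1.08), against 14.3% of all genes. All 21 also fell without both oil replicate 3 arrays. The gene lists were chosen with earlier results of these data known, so their counts are descriptions. Examples were cyclin A2 (Ccna2, -1.68, SE 0.32), the thymidylate synthase Tyms (-1.34, SE 0.14) and the helicase subunit Mcm5 (-1.29, SE 0.10). The E2 means of Tyms (7.27) and Mcm5 (6.97) were likewise dimmer than Sry at its brightest. Of 15 genes of dividing cells, 13 were lower by limma and 0 higher (median -1.27), with the checkpoint kinase Bub1 at -1.87 (SE 0.40) and the topoisomerase Top2a at -1.75 (SE 0.30). The size for Bub1 is uncertain too, since its E2 mean was 6.49. In oil uterus replicate 3 all 15 lay below the average of the other oil arrays (median -0.99), in oil oviduct replicate 3 0 of 15 did (median 0.72), and without both oil replicate 3 arrays 15 fell. In oviduct 0 of the 30, 0 of the 21 and 0 of the 15 genes were called by limma. Only 0.291% of all genes were called there, so these counts of 0 say little about the lists. The S phase genes were lower in oviduct than in uterus of oil mice in 21 of 21 (median -1.10), against 21.5% of all genes. In E2 mice 6 of 21 were lower (median -0.20), against 18.9% of all genes, and 8 without both oil replicate 3 arrays.

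**Figure D4:**
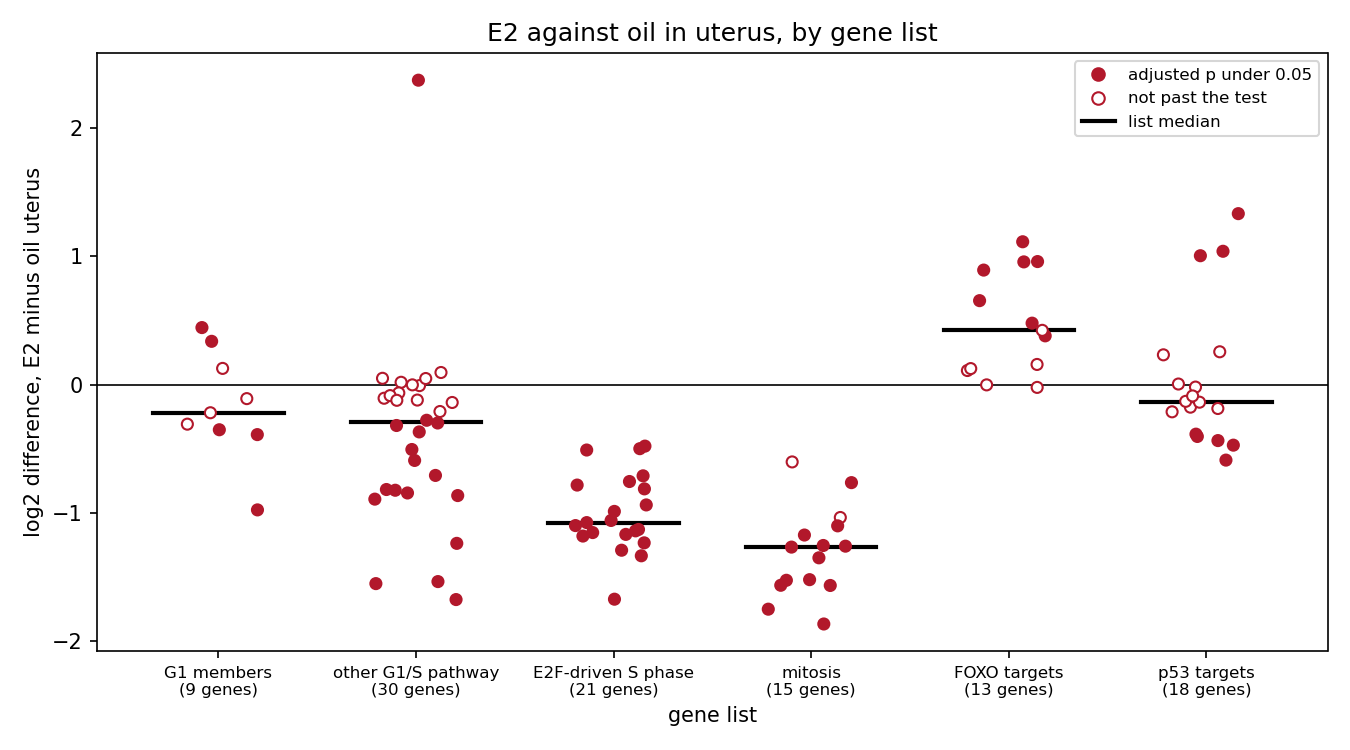
Log2 difference of E2 minus oil in uterus (y axis) for each measured gene of 6 lists (x axis, sideways spread has no meaning); filled points had an adjusted p under 0.05 and bars are list medians. The G1 genes have a median of -0.22, the S phase genes -1.08 and the mitosis genes -1.27.

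Markers of cell types moved with E2 in the same uterine arrays, where 12.4% of all genes were called higher and 14.3% lower. Epithelial markers rose in 12 of 13 and fell in 0 by limma (median 0.82), with a summed linear intensity of 10840 to 12368 in E2 uterus and 5099 to 5887 in oil uterus. Macrophage markers rose in 7 of 10 (6288 to 7130 in E2 uterus, 3781 to 4330 in oil uterus), and endothelial markers fell in 9 of 12 and rose in 2 (4809 to 5210 in E2 uterus, 6739 to 7728 in oil uterus). Uterine stromal markers fell in 6 of 12 (20608 to 21141 in E2 uterus, 22878 to 23415 in oil uterus), and smooth muscle markers rose in 3 of 12 (24763 to 25545 in E2 uterus, 18052 to 24859 in oil uterus). The 3 of 12 is not far from the share over all genes, and without both oil replicate 3 arrays 10 of the 12 rose. The other counts then became 11 higher for epithelial, 9 higher for macrophage, 10 lower for endothelial and 7 lower for stromal markers. The part of these shifts in the changes of the G1 genes was not tested. In oviduct, where 0.291% of all genes were called, 1 of the 13 epithelial markers fell and 0 rose by limma. Without both oil replicate 3 arrays 0 fell. Of the stromal, muscle, endothelial and macrophage markers 0 were called. Macrophage markers still had a median log2 difference of 0.54 in oviduct (0.36 without both oil replicate 3 arrays), against 0.72 in uterus. Their summed intensity was 4230 to 4932 in E2 oviduct and 2548 to 3710 in oil oviduct. The interaction contrast was called for 1 of these 10 markers, where 11.5% of all genes were called.

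For the 3 G1 genes with the largest called change in uterus, the genes most like them over the 12 arrays were found by Pearson correlation, given as a description over arrays that fall into 4 groups. Nearest to Ccnd2 were Npas3 (r = 0.992), Tmem109 (0.986) and Lpcat3 (0.978), with uterine log2 differences of -0.47, -0.25 and -0.18. Nearest to Cdk6 were Tapbpl (r = 0.959), Rnf145 (0.957) and Ifnlr1 (0.955), with uterine differences of 0.40, 0.35 and 0.25. Nearest to Cdk4 were Gins3 (r = 0.984), a subunit of the replication helicase complex, Mrpl15 (0.982), a mitochondrial ribosomal protein, and Wdcp (0.981), with uterine differences of -0.87, -0.42 and -0.24. The uterine means of Npas3, Tapbpl, Ifnlr1, Gins3 and Wdcp were all dimmer than Sry at its brightest, so the sizes of their differences are uncertain.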

How the data were processed

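RNA of 12 whole-tissue samples was measured on Affymetrix mouse gene arrays. The deposited table holds a linear intensity per probe set and array, made by the authors with RMA per the submitters' processing notes. Its version and further steps: not given in the sources used here. Intensities were log2 transformed. Of 35556 probe sets, 21789 had a single gene symbol, 1621 several and 12146 none listed; 21698 gene IDs matched the GRCm38.p6 gene table, and 19938 genes were tested, each by its brightest probe set on average. No intensity filter was applied. A model of 4 group means was fitted to all 12 arrays (lmFit and eBayes of limma 3.58.1, R 4.3.3). Tests were two-sided, p-values were adjusted across all genes after Benjamini and Hochberg, and 0.05 was the threshold. The fit was tested on simulated data with independent noise and no displaced array like oil replicate 3. That test therefore does not bear on the calls given here. The number of arrays limits the precision. The members and lists were chosen with earlier results of these data known. Named were all measured members, up to 4 called genes of each direction per list, and the 3 genes nearest to each of 3 members. Mdm2, a p53 target that was not called, was named outside this rule. The deposited arrays cover 0 and 10 µg/kg of E2 only and all were used, so the study's lower E2 doses could not be analysed here. Alternatives are those of the closing section. Equal replicate numbers were not taken as pairs. Within-group deviations of same-numbered E2 and oil samples correlated at -0.20 to 0.19. Those of same-numbered oviduct and uterus samples of a treatment, which could share mice, correlated at 0.0045 to 0.26. They reached 0.26 for oil replicate 3 and E2 replicate 1. The labels do not say whether the tissues share mice, so the main tissue and interaction tests do not account for such pairs. An alternative fit treated same-numbered samples of a treatment as a random block, with a consensus correlation of 0.099. No G1 gene gained or lost a call in that fit.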

Additional observations from a re-analysis of the deposited data

Results flagged for a closer look

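The E2 effect in oviduct minus that in uterus passed limma's interaction test for 3 of the 9 G1 genes, at 0.86 log2 units for Ccnd2, -0.47 for Cdk6 and -0.35 for Cdkn1b. In each case the uterine effect passed the test and the oviductal one did not. Single left-out arrays ended each of these calls, 1 of 12 for Ccnd2, 5 of 12 for Cdk6 and 6 of 12 for Cdkn1b. The sign was kept in every fit run.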

How the results depend on the processing

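The E2 effects in uterus kept their direction for all called members under the 24 alternatives. With a fold minimum of 1.2, 1 member (Ccnd2) passed in uterus, 0 in the interaction, 2 between tissues in E2 mice and 3 in oil mice, and genes passing numbered 1738 in uterus, 14 in oviduct, 718 in the interaction, 2701 in E2 mice and 3491 in oil mice. With array weights, 5 members passed in the interaction and 8 between tissues in E2 mice, and 8214, 264, 4531 and 10554 genes passed in uterus, oviduct, the interaction and between tissues in E2 mice. In oviduct 10 genes passed with each tissue fitted alone, 92 after the low-intensity filter and 121 without both oil replicate 3 arrays. Leaving out 1 array gave 0 to 5 members in the interaction and 14 to 67 genes in oviduct. With the replicate block as a fixed term, Ccnd1 in uterus (-0.35) was no longer called, which left 4 members. Same-numbered samples did not deviate together in every pair, so this block rests on numbers alone. Over all members, comparisons and alternatives, 980 results kept their side of the threshold, 50 lost a call, 23 gained one and 0 reversed. Signal near the level of Sry, the brightest Y-linked gene, limits Cdkn2c and the second Cdkn1b probe set.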

Other observations

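Known targets of FOXO factors, which also drive Cdkn1b, rose in 7 of 13 genes in E2 uterus and fell in 0 by limma (median log2 difference 0.42), where 12.4% of all genes were called higher, and 8 rose without both oil replicate 3 arrays. The growth arrest gene Gadd45b rose by 1.11 (SE 0.10), the muscle ubiquitin ligase Fbxo32 by 0.96 (SE 0.11), the PI3 kinase inhibitor Pik3ip1 by 0.96 (SE 0.17) and the thioredoxin-binding Txnip by 0.89 (SE 0.12). The size for Gadd45b is uncertain, since its oil mean (6.45) was under the brightest Y-linked value (7.50). In oviduct 0 of the 13 were called, where 0.291% of all genes were. The list has other regulators too, and its members were chosen with results of these data known.

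Targets of p53, which also drives Cdkn1a, went both ways in E2 uterus, with 3 of 18 higher and 5 lower by limma (median -0.13), against 12.4% higher and 14.3% lower over all genes. The share higher was near that of all genes, and more were lower than higher. Without both oil replicate 3 arrays 4 were higher and 6 lower. The junction protein Perp rose by 1.33 (SE 0.13), Trp53inp1 by 1.04 (SE 0.08) and the cell death gene Pmaip1 by 1.01 (SE 0.12). The kinase Plk2 was lower by 0.59 (SE 0.14) on the log2 scale, Ddit4l by 0.47 (SE 0.10), Eda2r by 0.44 (SE 0.13) and Phlda3 by 0.41 (SE 0.11). The calls of Eda2r and Phlda3 ended when certain single arrays were left out. Both means of Pmaip1 (6.86 with E2, 5.86 with oil) and the oil mean of Perp (6.92) were under the brightest Y-linked value. So were the E2 means of Plk2 (6.99) and Eda2r (7.47), and these sizes are uncertain. Mdm2, the p53 inhibitor, was at -0.02 (SE 0.10).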
